A study of Mus musculus with 10 samples.

Results

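Immediate early genes were examined in the tumor-draining lymph nodes (TDLNs) of mice treated by microwave ablation (MWA) with or without the glycolysis inhibitor 2-deoxy-D-glucose (2DG). They were taken as 10 genes by their symbols, Fos, Fosb, Jun, Junb, Jund, Egr1, Egr2, Egr3, Nr4a1 and Ier2, a choice by function whose rule used no expression value. All 10 were found among the 33585 genes of the tables, and 9 of them passed a filter of a mean of at least 1 FPKM (fragments mapped to a gene, scaled by the length of its transcripts and by the depth of the library), which 13334 genes passed in all. Fosb was the 1 gene below the filter. No member was called different between the treatments. The size that each difference could have had, and how the genes moved relative to each other from node to node, are given here.

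The mice were female BALB/c animals, 6 weeks old, with no transgene or gene deletion described. All carried 4T1 cells, a transplantable line from a BALB/c mammary carcinoma, injected into a mammary fat pad, and in all of them the primary tumor was ablated with microwave heat 10 days later. The 5 nodes of the MWA group came from mice that received PBS after ablation, as the study's methods state, while the 5 nodes labelled MWA+2DG came from mice injected intraperitoneally with 2DG from the day of ablation, every 2 days. Whole frozen TDLNs were sequenced in bulk on day 15. There was no node without ablation and none of an earlier time, so rapid induction by the heat itself or by an injection was outside the design. The labels number the samples 1 to 5 in each group and do not say whether each is 1 animal, so the p-values measure the spread between these samples.

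Immediate early genes are those a cell transcribes within minutes of a signal from factors that are already present, without new protein synthesis. Their mRNAs are usually short-lived, and most encode transcription factors that switch on a later set of genes. Fos, Fosb, Jun, Junb and Jund encode subunits of AP-1, a dimer of basic leucine zipper proteins. Egr1, Egr2 and Egr3 encode related zinc finger factors. Nr4a1 encodes the orphan nuclear receptor Nur77, and Ier2 a small nuclear protein. In lymphocytes these genes respond to the antigen receptor, among other stimuli, through calcium and the ERK kinases, and they also respond to stress and to the handling of tissue.

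The sequence just before the transcription start is shown for Fos, Nr4a1 and Egr2, because these windows carried 3 different arrangements of elements known to take part in rapid induction. The windows are the 250 bases before the start in RefSeq on GRCm38.p6, written 5′ to 3′ on the strand of the gene. Capitals mark matches on either strand to TGACG (the core of the cAMP response element, CRE), the CArG box (bound by serum response factor), the letters TATAAA of the basal promoter element known as a TATA box, or GCGNGGGCG, a site for Egr proteins.
Fos, chr12:85473640-85473889, plus strand: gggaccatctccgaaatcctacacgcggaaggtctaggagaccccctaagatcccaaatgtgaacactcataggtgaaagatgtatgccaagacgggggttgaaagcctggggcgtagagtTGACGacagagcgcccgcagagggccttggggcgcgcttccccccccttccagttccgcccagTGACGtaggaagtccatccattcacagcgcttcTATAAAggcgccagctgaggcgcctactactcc
Nr4a1, chr15:101266596-101266845, plus strand: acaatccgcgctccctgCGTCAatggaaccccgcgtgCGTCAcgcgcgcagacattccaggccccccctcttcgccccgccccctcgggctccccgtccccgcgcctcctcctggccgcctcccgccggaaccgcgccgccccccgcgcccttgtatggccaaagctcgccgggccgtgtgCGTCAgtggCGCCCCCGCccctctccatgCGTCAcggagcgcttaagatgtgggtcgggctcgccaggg
Egr2, chr10:67537619-67537868, plus strand: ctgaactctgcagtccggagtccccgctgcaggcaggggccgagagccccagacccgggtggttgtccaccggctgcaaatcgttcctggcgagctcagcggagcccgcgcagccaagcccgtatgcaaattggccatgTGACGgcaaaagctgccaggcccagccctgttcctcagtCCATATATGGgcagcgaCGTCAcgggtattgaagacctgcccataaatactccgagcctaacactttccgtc
The Fos window held the CRE core 129 and 66 bases before the start and a TATA box at 33 bases. The Nr4a1 window held the CRE core 4 times, at 233, 213, 69 and 40 bases, and an Egr site at 60 bases. The Egr2 window held a CArG box at 72 bases with a CRE core on either side, at 111 and 55 bases.

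The RefSeq table held 7 of the 10 members in 11 windows. The CRE core was found in 5 of the 7 members, Fos, Fosb, Junb, Egr2 and Nr4a1, and in 17.8% of all 32851 windows of the same length. Members were counted with a match in any of their windows, while the shares are per window, so the units differ. Egr2 alone had 5 of the 11 windows. A CArG box was found for Egr2, in 4 of its 5 windows, beside 1.47% of all windows. Of those 4 windows 3 overlap and hold the same box, so they carry 2 boxes in all. The Fos window was the only one of a member with TATAAA, which 12.4% of all windows held. An Egr site was found before Fosb and Nr4a1 and in 4.7% of all windows. The AP-1 site TGANTCA was in no window of a member and in 6.75% of all windows. The windows of Jun and Jund held none of these letters, and variants of the letters were not searched for. Egr1, Egr3 and Ier2 were not in the table. These matches describe the letters of the windows and do not show binding in these nodes.

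Every member had a value above 0 in all 10 nodes, but their levels per transcript length spanned a wide range. Jund was the highest, with a mean of 94.1 FPKM over the 10 nodes, followed by Junb at 49.3 and Ier2 at 44.8 FPKM. Egr1 (14.8 FPKM), Egr3 (11.4), Jun (10.7), Nr4a1 (9.81) and Egr2 (6.26) formed a middle range. Fos, at 1.61 FPKM, and Fosb, at 0.207 FPKM, were far below them, so Fos and Fosb were the scarcest of the 5 AP-1 subunits among the members. Of the neighbours in this order, Jund and Junb, Ier2 and Egr1, Nr4a1 and Egr2, Egr2 and Fos, and Fos and Fosb were in the same order in 10 of 10 nodes, and their ranges did not overlap. Egr1 was above Egr3 in 9 nodes, Junb above Ier2 in 7, Egr3 above Jun in 7 and Jun above Nr4a1 in 5, and the ranges of each of these pairs overlapped.

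**Figure D1:**
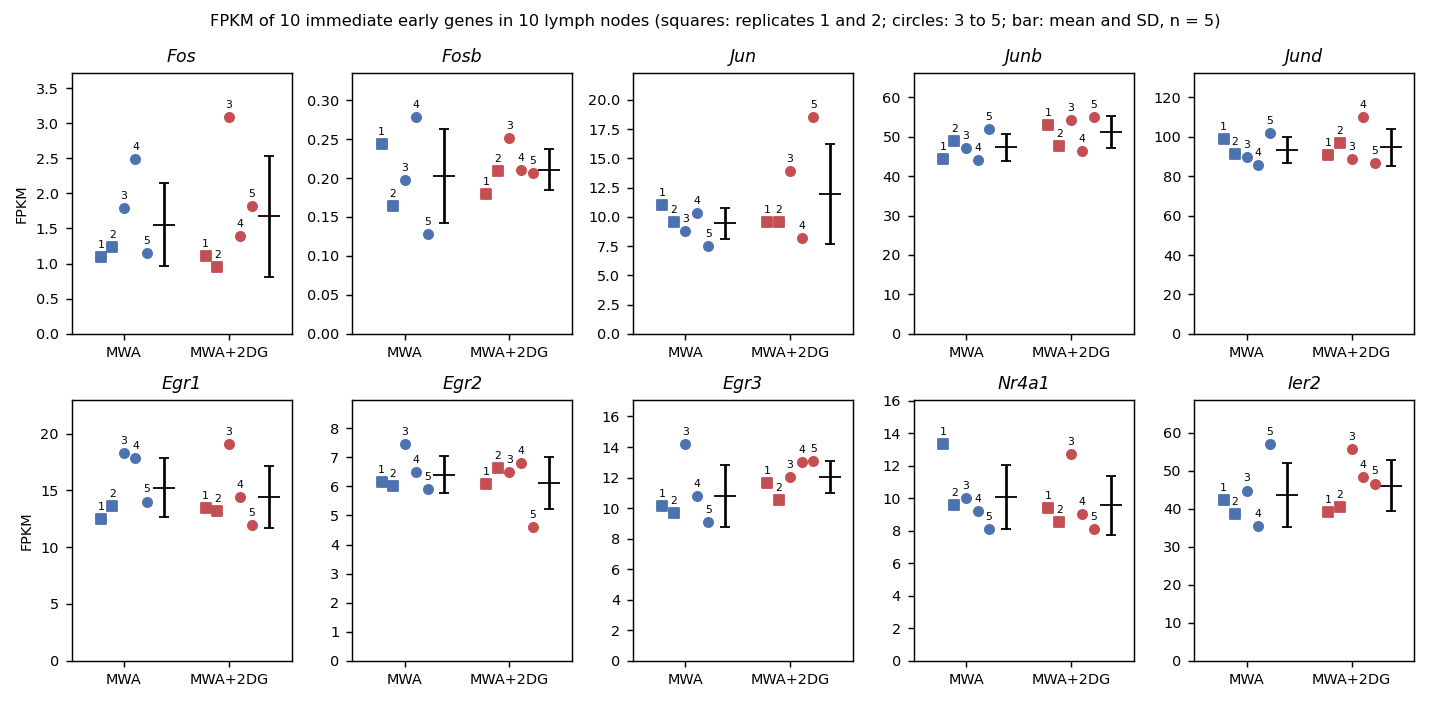
FPKM (vertical axis, linear, starting at 0, with a scale of its own for each gene) of the 10 immediate early genes in the 5 MWA and the 5 MWA+2DG nodes. Each point is 1 node with its replicate number, squares are replicates 1 and 2, circles are replicates 3 to 5, and the bar gives the mean and SD (n = 5). The points of both groups overlap for every gene, and the highest Fos (3.09) and Jun (18.6) are single MWA+2DG nodes.

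Fos, the prototype of the family and the obligate partner of a Jun protein in AP-1, was measured at 1.10, 1.24, 1.80, 2.48 and 1.16 FPKM in MWA 1 to 5. It was at 1.11, 0.957, 3.09, 1.39 and 1.82 FPKM in MWA+2DG 1 to 5. The lowest and the highest value were both from the MWA+2DG group, and the other 8 nodes lay between them. The mean was 1.55 ± 0.589 FPKM (SD, n = 5) after MWA and 1.67 ± 0.858 FPKM (SD, n = 5) after MWA+2DG. The difference of MWA+2DG minus MWA on the log2(FPKM + 1) scale, used for every difference here, was 0.04 with a standard error of 0.21 and a 95% interval of -0.42 to 0.50 (limma). In the two-sided exact permutation test over all regroupings of the 10 nodes, p was 0.841, where the smallest p the design allows is 0.00794. Since whole nodes were measured, fewer cells expressing a gene and less of its RNA per cell cannot be told apart.

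Fosb, a close relative of Fos, ranged from 0.128 to 0.279 FPKM after MWA and from 0.179 to 0.251 FPKM after MWA+2DG. Its means were 0.202 ± 0.0603 and 0.211 ± 0.0258 FPKM (SD, n = 5 each), and the exact permutation p was 0.762. With values this far below 1 FPKM, a difference on the log2(FPKM + 1) scale is compressed, and without the filter it was 0.01 with a standard error of 0.03.

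Jun, the subunit that pairs with itself or with a Fos protein, was at 11.02, 9.53, 8.81, 10.3 and 7.50 FPKM in MWA 1 to 5. In MWA+2DG 1 to 5 it was at 9.55, 9.54, 13.95, 8.20 and 18.6 FPKM. MWA+2DG 3 and 5 stood above every MWA node, and the other 3 MWA+2DG nodes lay within the MWA range. The mean was 9.43 ± 1.36 FPKM after MWA and 11.96 ± 4.28 FPKM after MWA+2DG (SD, n = 5 each). Of all members Jun had the largest difference, 0.27 with a standard error of 0.19 and a 95% interval of -0.16 to 0.69, and the two-sided exact permutation p was 0.262. The difference was 0.10 without MWA+2DG 5 and 0.37 without MWA+2DG 4. MWA+2DG 5 also had the highest summed adipose tissue markers (Adipoq, Plin1, Cfd and Fabp4), 85.4 FPKM against 4.51 to 47.9 in the other 9 nodes. The same node had the highest summed epithelium markers (Epcam, Krt8, Krt18 and Krt14), 9.42 FPKM against 1.66 to 5.28 in the other 9 nodes. Krt8, Krt18 and Krt14 were each at their highest in this node. Epcam did not go along, at 1.97 FPKM against 1.47 to 2.87 FPKM in the other 9 nodes. Of the 4 adipose markers 3 were tested, and of the 4 epithelium markers 2, and none was called. No marker was listed at 0 in every node, and the part of either set in the Jun value was not tested.

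Junb, which opposes or replaces Jun in many AP-1 settings, was at 44.2, 48.9, 47.0, 44.1 and 52.1 FPKM in MWA 1 to 5. It was at 53.0, 47.6, 54.2, 46.3 and 55.1 FPKM in MWA+2DG 1 to 5. Here 3 MWA+2DG nodes exceeded every MWA node and the other 2 fell among them. The mean was 47.3 ± 3.34 FPKM after MWA and 51.2 ± 4.02 FPKM after MWA+2DG, a difference of 0.11 with a standard error of 0.08 and a 95% interval of -0.06 to 0.28. The exact permutation p of 0.127 was the smallest among the members.

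Jund, the Jun protein that most cells express without stimulation, was at 98.7, 91.5, 89.7, 85.5 and 102 FPKM in MWA 1 to 5. It was at 90.9, 96.9, 88.7, 110.3 and 86.5 FPKM in MWA+2DG 1 to 5. The highest value, in MWA+2DG 4, was only 1.29 times the lowest. The difference between the groups was 0.02 with a standard error of 0.08, and its 95% interval, -0.17 to 0.20, was among the narrowest of the members (exact permutation p = 0.865).

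The AP-1 subunits can also be read as shares of their sum, which was 142.8 to 162.6 FPKM after MWA and 154.8 to 166.3 FPKM after MWA+2DG. Jund made up 61.5 ± 1.54% of this sum after MWA and 59.2 ± 5.24% after MWA+2DG, and Junb 31.1 ± 1.57% and 32.1 ± 2.81% (SD, n = 5 each). Jun contributed 6.24 ± 1.05% and 7.48 ± 2.61%, with the highest share, 11.4%, in MWA+2DG 5. Fos and Fosb together contributed 0.751 to 2.09% over the 10 nodes. The ranges of the groups overlapped for each of these shares.

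Egr1, a zinc finger factor induced through ERK and serum response factor, was at 12.5, 13.6, 18.3, 17.8 and 14.03 FPKM in MWA 1 to 5. It was at 13.5, 13.2, 19.1, 14.4 and 11.96 FPKM in MWA+2DG 1 to 5. The MWA+2DG group held both the highest and the lowest node. The mean was 15.3 ± 2.63 FPKM after MWA and 14.4 ± 2.77 FPKM after MWA+2DG, with a difference of -0.08, a standard error of 0.14 and a 95% interval of -0.38 to 0.23 (exact permutation p = 0.651).

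Egr2 and Egr3, which are induced by the T cell receptor through NFAT and are known to restrain T cell activation, gave differences of opposite sign. Egr2 was at 6.15, 6.02, 7.47, 6.50 and 5.90 FPKM in MWA 1 to 5 and at 6.08, 6.65, 6.49, 6.81 and 4.59 FPKM in MWA+2DG 1 to 5. The node labelled MWA+2DG 5 was the lowest, and the other 4 lay within the MWA range. The Egr2 difference was -0.06 with a standard error of 0.10 and a 95% interval of -0.29 to 0.16 (exact permutation p = 0.635). Egr3 was at 10.1, 9.67, 14.2, 10.8 and 9.11 FPKM in MWA 1 to 5 and at 11.6, 10.5, 12.03, 13.02 and 13.1 FPKM in MWA+2DG 1 to 5. No MWA+2DG node exceeded MWA 3, but 4 of the 5 were above the MWA mean. The Egr3 difference was 0.16 with a standard error of 0.11 and a 95% interval of -0.09 to 0.41 (exact permutation p = 0.214). Without MWA 3 it was 0.25 with an unadjusted limma P of 0.0144 (0.970 when adjusted), which is the only alternative fit in which a member passed the study's rule for changed genes.

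The ratio of Egr3 to Egr2 was 1.67 ± 0.136 after MWA and 2.02 ± 0.481 after MWA+2DG (SD, n = 5 each). It was 2.85 in MWA+2DG 5, where Egr3 was among the higher values and Egr2 was at its lowest, and at most 1.92 in the other 9 nodes. The ratio of Jun to Egr2 was likewise at 4.04 in this node and between 1.18 and 2.15 in the others. These ratios were looked at after the values were seen and were not tested.

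Nr4a1, which rises in T and B cells when the antigen receptor is engaged, was at 13.4, 9.59, 10.01, 9.22 and 8.11 FPKM in MWA 1 to 5. It was at 9.42, 8.51, 12.7, 9.01 and 8.12 FPKM in MWA+2DG 1 to 5. In each group 1 node stood above the other 4, MWA 1 and MWA+2DG 3. The mean was 10.1 ± 1.97 FPKM after MWA and 9.56 ± 1.83 FPKM after MWA+2DG, a difference of -0.07 with a standard error of 0.14 and a 95% interval of -0.37 to 0.24 (exact permutation p = 0.587). MWA 1 also had the highest summed neutrophil markers (S100a8, S100a9, Ly6g, Retnlg, Camp and Ngp), 90.5 FPKM against 1.71 to 17.6 in the other 9 nodes. Of the 3 neutrophil markers tested, 2 were lower after MWA+2DG by the study's rule, beside 1.87% of all genes. None of the 3 had an adjusted p below 0.05 (limma). The part of the neutrophil markers in the Nr4a1 value was not tested.

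Ier2 was at 42.2, 38.5, 44.8, 35.4 and 57.1 FPKM in MWA 1 to 5 and at 39.1, 40.3, 55.7, 48.2 and 46.6 FPKM in MWA+2DG 1 to 5. All MWA+2DG nodes lay within the MWA range. The difference was 0.08 with a standard error of 0.14 and a 95% interval of -0.22 to 0.38 (exact permutation p = 0.579).

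Over the 9 tested members, 0 passed an adjusted p of 0.05 in limma (Benjamini-Hochberg over all genes, 0.995 for 8 members and 0.996 for Jund), beside 0.0% of all 13334 genes. The study's rule, an unadjusted P below 0.05 with a log fold change beyond 0.25, called 0 members in either direction, beside 2.82% of all genes, made up of 0.952% higher and 1.87% lower after MWA+2DG. An unadjusted P below 0.05 alone was reached by 0 members and by 4.25% of all genes, and the exact Wilcoxon rank-sum test at p below 0.05 also called 0 members. No member had groups that did not overlap, beside 0.802% of all genes. For a list of 9 genes a share of 0 lies near each of these background shares. The difference was positive for 6 members and negative for 3, with a median of 0.04 beside 0.01 over all genes tested.

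**Figure D2:**
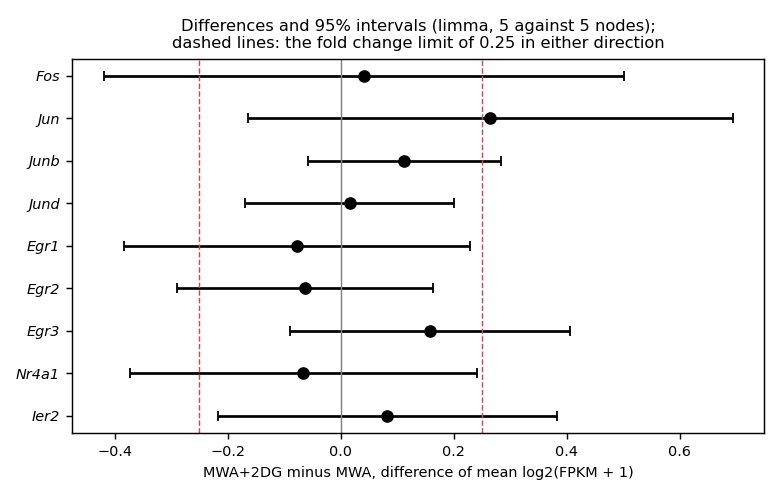
Difference of MWA+2DG minus MWA in mean log2(FPKM + 1) (horizontal axis) with its 95% interval from limma for the 9 tested immediate early genes (5 against 5 nodes), with the study's limit of 0.25 drawn as dashed lines. All 9 intervals cross 0, and that of Jun is centred at 0.27 and reaches 0.69.

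How large a change these nodes could have missed differed between the members. For Jund and Egr2 the whole interval lay between folds of 0.818 and 1.15 in FPKM + 1, and for Junb between 0.960 and 1.22. For Fos it ran from 0.748 to 1.42, and for Jun from 0.892 to 1.62. With a mean of 1.61 FPKM for Fos, the added 1 compresses its folds. Its interval in FPKM is therefore wider than printed, and the Fos folds cannot be ranked against those of Jun. A modest change of Fos or Jun in either group was therefore not detectable with 5 nodes a group, and these results do not show that the levels were equal.

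The nodes with replicate numbers 1 and 2 and those with numbers 3 to 5 are known from an earlier analysis of these data to stand apart as 2 sets, in both groups, and no label says what separates them. Of all genes 9.84% had values that did not overlap between the sets, and 0 of the 9 tested members did. Fos was at 0.957 to 1.24 FPKM in the 4 nodes of the first set and at 1.16 to 3.09 FPKM in the 6 of the second. Heat shock genes, summed, were at 774 to 993 FPKM in the first set and at 980.2 to 1227 FPKM in the second. Hspa8, the largest part of this sum, was at 390 to 483 and 435 to 542 FPKM. Dnajb1, Hspb1, Hspe1 and Hspd1 also overlapped between the sets, with Dnajb1 at 27.4 to 43.2 and 18.3 to 50.3 FPKM. Hspa1a, Hspa1b, Hsph1 and Hsp90aa1 did not overlap and were higher in the second set. Liver markers, summed, were at 22.0 to 27.2 and 69.6 to 162 FPKM. In the first set this sum was nearly all Serpina1a (22.0 to 27.2 FPKM), which was at 21.8 to 30.4 FPKM in the second. Alb, Apoa1, Ttr and Apoh were each at most 0.0486 FPKM in the first set. In the second, Alb was at 35.1 to 102 FPKM, and Apoa1, Ttr and Apoh were above their first-set values in every node. The part of the heat shock genes and liver markers in the Fos values was not tested. Exact permutation of the treatment labels within the sets gave p between 0.15 for Junb and 0.85 for Jund over the 10 members, where the smallest possible p is 0.0167. B cell markers (1107 to 1460 FPKM) and T cell markers (179.8 to 290.04 FPKM) were present in all nodes, with none of them listed at 0 throughout, while skeletal muscle markers were at most 1.11 FPKM. The difference of MWA+2DG minus MWA was positive for 6 of 6 T cell markers (median 0.19), with Cd8a called higher by the study's rule (0.28), and for 0 of 5 B cell markers (median -0.07). It was positive for 1 of 5 macrophage markers (median -0.25), with Csf1r called lower (-0.30). The rule called 2.82% of all genes, and none of these T cell, B cell and macrophage markers had an adjusted p below 0.05 (limma).

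The members were unequal in how far they varied from node to node. Fos and Jun varied most, with an SD of 0.35 on the log2(FPKM + 1) scale for each over the 10 nodes, above 86.0% and 93.8% of the 1001 tested genes nearest to them in level. The highest Fos value was 3.23 times the lowest, and the highest Jun value 2.48 times the lowest. Egr1 and Nr4a1 had an SD of 0.23 each, Ier2 0.22, Egr3 0.19 and Egr2 0.16. Junb and Jund had SDs of 0.12 and 0.11, above only 21.8% and 16.1% of the genes nearest in level, and a highest value 1.25 and 1.29 times the lowest. So 2 Jun family members with high levels were among the steadier genes and Jun, the remaining Jun protein, among the more variable.

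**Figure D3:**
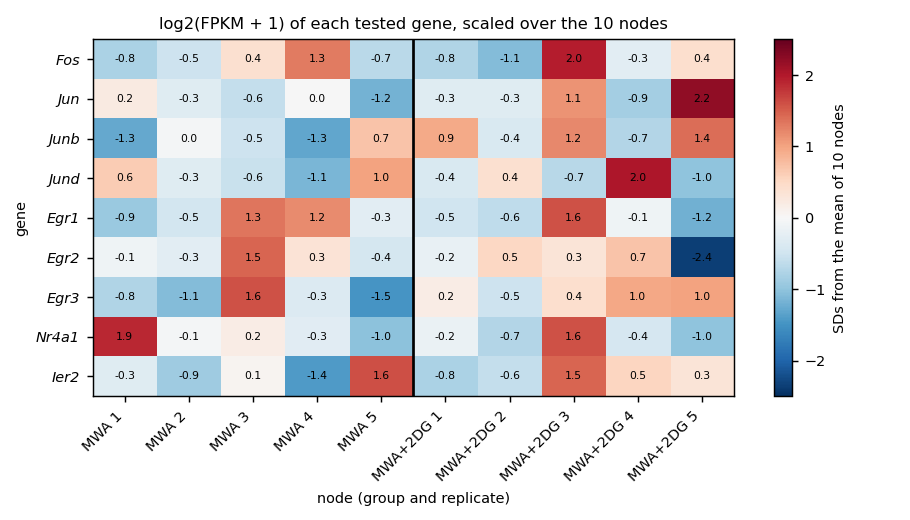
log2(FPKM + 1) of each tested immediate early gene (rows) in the 10 nodes (columns), as SDs from the gene's own mean over the nodes, with red above and blue below it. MWA+2DG 3 is above the mean for 8 of 9 genes and MWA 2 for 0 of 9, while MWA+2DG 5 has the highest Jun and the lowest Egr2.

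Averaged over the 9 tested members as SDs from each gene's mean, 1 node stood out. MWA+2DG 3 was at 1.00, with 8 of 9 members above their mean and the exception being Jund. MWA 3 followed at 0.37 with 6 members above their mean, and MWA+2DG 4 at 0.21 with 4. MWA 2 was lowest at -0.44, with 0 members above their mean, and MWA+2DG 2 was at -0.37. The remaining 5 nodes lay between -0.22 and -0.02. Both groups thus held nodes at either end of this scale.

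Co-variation across the nodes was tested pair by pair, since genes induced by a common stimulus could be high in the same nodes. Over the 36 pairs of the 9 tested members the median Pearson r of log2(FPKM + 1) was 0.14, beside 0.08 over all pairs of tested genes. An r above 0 was found for 66.7% of the member pairs and 56.4% of all pairs. An r above 0.5 was found for 8.33% of the member pairs, fewer than the 18.4% among all gene pairs, and an r below -0.5 for 11.1% beside 10.6%. The pairs share the same 10 nodes and each gene enters 8 pairs, so these shares are descriptions. The median r was 0.13 for deviations from the group means and 0.07 for deviations from the group and replicate-set means. Within replicates 3 to 5 it was 0.09 (n = 6). With only MWA+2DG 3 left out, the median r fell to -0.06.

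**Figure D4:**
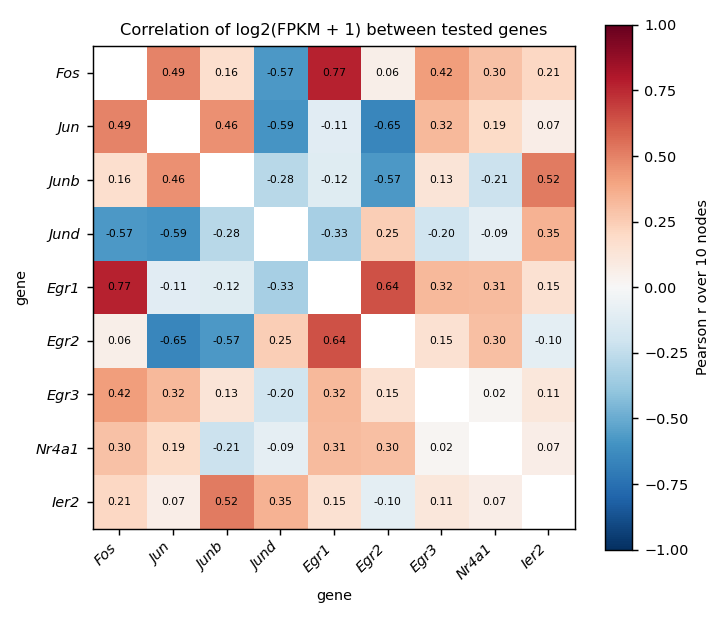
Pearson r of log2(FPKM + 1) over the 10 nodes for each pair of the 9 tested immediate early genes, with red for positive and blue for negative values and the r printed in each cell. The highest r is that of Fos with Egr1 (0.77) and the lowest that of Jun with Egr2 (-0.65).

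The highest r was that of Fos with Egr1, 0.77 (Spearman rho 0.61, n = 10). The permutation p was 0.0127 for r and 0.0657 for rho, and 0.458 and 0.604 after Benjamini-Hochberg adjustment over the 36 pairs. Without MWA 4 and MWA+2DG 3, the nodes farthest from the median of Fos, r was 0.38. Leaving them out also narrows the range of Fos, so this r cannot decide whether the relation rested on these nodes. Within replicates 3 to 5 r was 0.66 (n = 6). Egr1 and Egr2 had an r of 0.64 and a rho of 0.54, with permutation p of 0.0350 and 0.111 and adjusted values of 0.487 and 0.692. Their r was 0.55 without MWA 3 and MWA+2DG 3 and 0.79 within replicates 3 to 5. Junb and Ier2 came next, with an r of 0.52 and a rho of 0.41 (permutation p 0.130 and 0.248, adjusted 0.627 and 0.793), an r of 0.34 without MWA+2DG 3 and 5, and of 0.72 within replicates 3 to 5.

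At the other end, Jun and Egr2 had an r of -0.65 and a rho of -0.28. The permutation p was 0.0594 and 0.430, the adjusted values 0.487 and 0.793, and r was -0.08 without MWA+2DG 3 and 5. Of these nodes MWA+2DG 5 went with the negative relation, at 2.22 SDs from the mean for Jun and -2.36 for Egr2. MWA+2DG 3 was above the mean for both genes, at 1.12 and 0.32. Jun and Jund had an r of -0.59 and a rho of -0.66 (permutation p 0.0694 and 0.0435, adjusted 0.487 and 0.604), with -0.51 without MWA+2DG 3 and 5 and -0.66 within replicates 3 to 5. Junb and Egr2 had an r of -0.57 and a rho of -0.61 (permutation p 0.0671 for each, adjusted 0.487 and 0.604), with -0.44 without the same nodes and -0.67 within replicates 3 to 5. No pair passed the adjustment, the smallest adjusted p for r being 0.458, and 2 of the 36 pairs were below 0.05 before it.

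Of all other tested genes, those whose log2 values most resembled the mean of the members over the 10 nodes were Scamp3 (r = 0.92), Ddb2 (0.88), Nckap5l (0.88), Slc25a25 (0.87) and Sars2 (0.87). Scamp3 kept an r of 0.86 without MWA 3 and MWA+2DG 3 and Nckap5l one of 0.84, while Ddb2 (0.56), Slc25a25 (0.52) and Sars2 (0.50) fell further. Aar2 (-0.89), Art2a-ps (-0.87) and Copb2 (-0.87) were the most opposed, at -0.38, -0.76 and -0.62 without these nodes. These genes were picked as the extremes among all tested genes in the same nodes, so no p-value is given.

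Other genes around rapid induction were looked at through 7 lists with 131 genes, of which 126 were tested. By the study's rule 1 of the 126 was higher and 0 lower after MWA+2DG, or 0.794% beside 2.82% of all genes, and 0 had an adjusted p below 0.05 (limma). The gene called was Hes1, a rapidly induced transcriptional repressor and target of Notch, at 3.09, 3.50, 4.64, 4.17 and 3.64 FPKM in MWA 1 to 5. It was at 4.64, 4.32, 5.59, 3.99 and 6.19 FPKM in MWA+2DG 1 to 5, with a difference of 0.30, a standard error of 0.12, an unadjusted limma P of 0.0295 and an exact permutation p of 0.0476. Its groups overlapped, and its call was lost without MWA 1, MWA 2, MWA 5, MWA+2DG 3 or MWA+2DG 5, each left out alone.

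Among the further AP-1 and basic leucine zipper genes 8 of 9 differences were positive with a median of 0.12, led by the small Maf proteins Mafg (0.16), Maff (0.18) and Mafk (0.24). The other rapidly induced transcription factors, with 10 of 19 positive and a median of 0.04, were led by Hes1, Ier3 (0.23) and Klf2 (0.23). Feedback inhibitors, which switch rapid induction off again, had 11 of 24 positive and a median of -0.02. Dusp6, a phosphatase of ERK, was at -0.20 with an unadjusted limma P of 0.0455 and an exact permutation p of 0.0476, and Rgs2 (-0.20) and Errfi1 (-0.28) followed. Other rapid response genes had 6 of 17 positive and a median of -0.02, with Phlda1 at 0.21, Gadd45b at -0.11 and Sgk1 at 0.12.

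Upstream factors and kinases, the proteins that act on the promoters and in the pathways leading to them, had 24 of 30 positive differences and a median of 0.06. The median over all genes tested was 0.01. The smallest P values in the list were those of Mrtfa (0.15), Elk4 (0.21) and Mrtfb (0.38), which bind or assist serum response factor. Each of these genes was at its lowest in MWA 5, at 14.4, 12.8 and 0.801 FPKM in turn. The part of this node in the signs of the list was not tested. Targets after antigen receptor signaling had 11 of 18 positive and a median of 0.06, with Cblb at 0.22, Cd40 at -0.16 and Icos at 0.21. The part of the T cell, B cell and macrophage markers in these differences, or in those of the members, was not tested. Heat shock genes had 2 of 9 positive and a median of -0.14, with Hspe1 at -0.14, Hsp90aa1 at -0.15 and Hspd1 at -0.09. Apart from Hes1, none of these named genes passed the study's rule, and Fosl1, Egr4, Nr4a2, Ptgs2 and Rnf128 were below the filter.

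**Figure D5:**
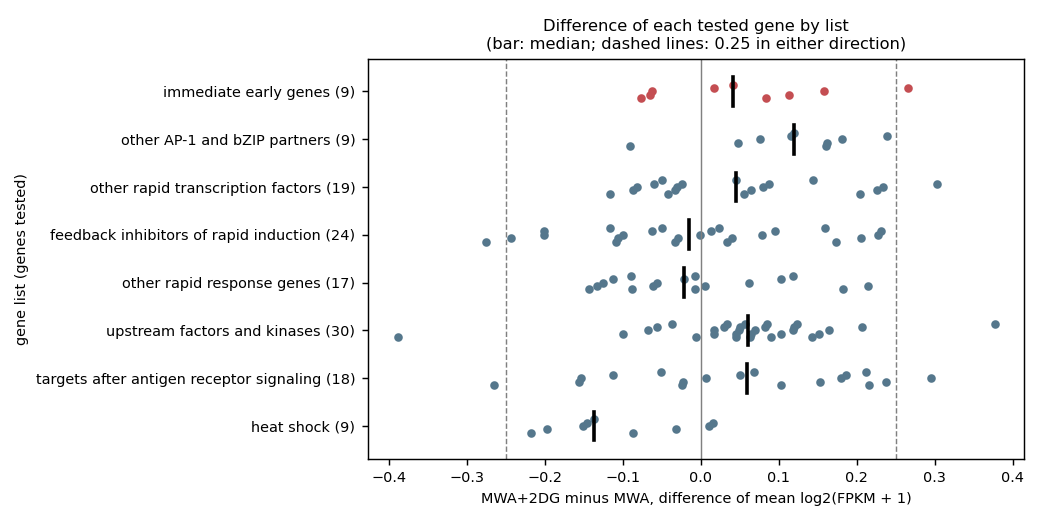
Difference of MWA+2DG minus MWA in mean log2(FPKM + 1) (horizontal axis) for each tested gene of the immediate early genes (red) and of 7 further lists (rows, with the number of genes tested), with a bar at each list's median and dashed lines at 0.25 in either direction. The medians lie between -0.14 (heat shock) and 0.12 (other AP-1 and basic leucine zipper partners), and that of the immediate early genes is 0.04.

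The summed FPKM of a table was 316374 to 359984 after MWA and 312143 to 325765 after MWA+2DG. Rescaling each table to the same total raised the difference of each tested member and moved the median over all genes from 0.01 to 0.07. The study's rule then called 487 genes, 67.4% of them higher, where 376 genes were called on the deposited scale, 33.8% of them higher. On the deposited scale without MWA+2DG 5 it called 222 higher and 176 lower, or 55.8% higher, against 127 higher and 249 lower with all nodes. It called 0 members on either scale with all nodes, and the sign of the difference was the same on both scales for all 9 tested members.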

How the data were processed

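Bulk mRNA was sequenced from 10 TDLNs, 5 of the MWA and 5 of the MWA+2DG group. The authors deposited FPKM per gene, 1 table per sample, computed with StringTie and ballgown after mapping with HISAT2. The submitters' processing notes name cutadapt 1.9, HISAT2 2.0.4, UMI-tools, StringTie 1.3.4d and mm9. The study's methods name fastp for read quality, and the gene annotation is not given in the sources used. FPKM is divided by transcript length and mapped reads, the smallest value above 0 was 1e-06 and whole reads were not recovered, so the depth is unknown. No 2 tables shared more than 0.0178% of their nonzero values.

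Symbols matched 33541 of 33643 identifiers, and identifiers of 57 shared symbols were summed, which left 33585 genes. Differences of log2(FPKM + 1) were fitted with limma 3.58.1 in R 4.3.3 without covariates, over the 13334 genes whose mean FPKM was 1 or more, with Benjamini-Hochberg adjustment. The fit was tested on simulated data. The study's rule gives no log base or pseudocount, and log2 and 1 were used. A difference on this scale understates the change of low genes. Exact permutation tests were two-sided, and those of correlations used 100000 resamples.

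The members, lists and tests were chosen with earlier results of these data known. Named were all members, from each list the 3 genes with the lowest P, outside the cell type markers, the 3 highest and 3 lowest member pairs by r, and the 5 most and 3 least similar other genes. Alternatives were another pseudocount, filters, scalings, limma-trend, the exact Wilcoxon test, a replicate block, the replicate set as covariate, each sample left out and a natural log reading of the rule.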

Additional observations from a re-analysis of the deposited data

Results flagged for a closer look

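Among the 10 members, the genes named from the lists and the 8 genes most and least similar to the members, 39 genes in 78 groups of 5 nodes were searched for a node standing apart from the rest of its group, a rule that chance meets in about 1 of 20 groups. It was met 4 times, where 3.9 are expected, and by 0 of the members. In MWA 4, Mafk was at 14.8 FPKM while the other MWA nodes lay between 11.1 and 11.8 FPKM. In MWA+2DG 3, Errfi1 was at 7.68 FPKM while the others of the group lay between 4.51 and 4.93 FPKM. In MWA 5, Elk4 was at 12.8 FPKM against 18.7 to 20.7 FPKM in the other MWA nodes, and Cblb at 5.95 FPKM against 8.40 to 8.81 FPKM.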

How the results depend on the processing

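Across 20 alternative fits 0 members had an adjusted p below 0.05, the smallest being 0.862, and over 16 alternatives 0 had groups that did not overlap. By the study's rule 0 members were called except 1, Egr3, without MWA replicate 3, so that leaving out each sample gave 0 to 1, and the natural log reading called 0. The median difference of the members was 0.04 and lay between 0.01 and 0.13 over 17 alternatives. Leaving out samples in turn changed the sign for 4 members, with ranges of -0.13 to 0.16 for Fos, -0.040 to 0.047 for Jund, -0.10 to 0.022 for Egr2 and -0.16 to 0.033 for Nr4a1. The others kept their sign, at 0.10 to 0.37 for Jun, 0.09 to 0.15 for Junb, -0.18 to -0.01 for Egr1, 0.11 to 0.25 for Egr3 and 0.01 to 0.18 for Ier2. The median pairwise r of the members ranged from -0.059 (without MWA+2DG replicate 3) to 0.21 when samples were left out, and was 0.24 with tables rescaled to 1000000, 0.24 with quantile normalization and 0.23 with median ratio scaling, beside 0.14. Of the other listed genes 1 passed the study's rule, 0 with a mean FPKM of at least 5, quantile normalization, median ratio scaling or the exact Wilcoxon test, 3 with the replicate block (Hes1, Mrtfb and Ccl3), and 0 to 3 with samples left out. Over all genes the rule called 376, but 230 with a mean FPKM of at least 5 and 210 with the exact Wilcoxon test, and an adjusted p below 0.05 was reached by 1 gene without MWA replicate 2 and otherwise by 0. The cause of these changes was not tested. Some of the alternatives also leave fewer genes or samples. Samples of the same number had correlated deviations from their group means in 4 of 5 pairs (0.331, 0.501, 0.1098 and 0.151, with 0.0334 in replicate 4), and 3 of 10 samples correlated best with their own number. The numbers were therefore not taken to pair the samples, and with the replicate block 0 members were called and their median difference was 0.04. With 5 nodes a group and no read counts, neither counting error nor modest changes of Fos and Jun could be resolved.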

Other observations

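Atf3, a stress-induced partner of AP-1 that was in a list but outside the rule for named genes and was picked after its values were seen, was at 5.76 FPKM in MWA+2DG 5 and 3.00 FPKM in MWA 4. It lay between 0.652 and 1.63 FPKM in the other 8 nodes. MWA+2DG 5 was the node with the highest Jun, and MWA 4 the MWA node with the highest Fos. The highest Fos of all 10 nodes, 3.09 FPKM, was in MWA+2DG 3, where Atf3 was at 1.63 FPKM. Jun in MWA 4, at 10.3 FPKM, was not the highest of its group. The difference of Atf3 between the groups was 0.16 with a standard error of 0.37 (exact permutation p = 0.722). The heat-inducible genes Hspa1a and Hspa1b, also picked after their values were seen, were at 1.89 to 4.48 FPKM and 2.72 to 8.18 FPKM in replicates 1 and 2. In replicates 3 to 5 they were at 10.3 to 24.9 FPKM and 15.4 to 35.2 FPKM. These 2 genes are near-identical copies, so reads could be split between them in the deposited values. Of the other heat shock genes listed, Hsph1 and Hsp90aa1 also did not overlap between the sets. Dnajb1, Hspa8, Hspb1, Hspe1 and Hspd1 did overlap. Dnajb1 was at 27.4 to 43.2 FPKM in replicates 1 and 2 and at 18.3 to 50.3 FPKM in replicates 3 to 5.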
